A study of Mus musculus with 34 samples.

Results

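In microglia, the resident macrophages of the brain, 2 histone marks were compared within mice labelled FGR, the growth-restricted arm of a study of intrauterine growth restriction. The comparison rests on 4 H3K4me3 and 4 H3K9ac libraries of FGR hippocampal microglia, 8 of the 34 samples of the series, and asks at which gene ends both marks, H3K4me3 alone or H3K9ac alone were called. All animals, FGR and control (Ctrl), had the genotype Tmem119-tdTomato+/-, 1 copy of a reporter that makes microglia fluorescent. The labelled age was 3 weeks after birth, and replicate 4 of each mark has no age in its label. The assay was ULI-NChIP-seq, a chromatin immunoprecipitation of unfixed, nuclease-cut chromatin for small cell numbers. Ctrl libraries of the same marks, and H3K27ac and H3K9me3 libraries, 4 each, did not define the classes and served to describe the genes found. The Ctrl H3K4me3 and H3K9ac libraries also entered a check of the labels and a test of the interaction of mark and animal group. Nothing in the labels ties a replicate to its own mouse or to a pool of mice, so p-values measure the spread between these libraries, which may be technical. The way growth was restricted and the sorting of the cells are not described there either.

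H3K4me3, a trimethyl group on lysine 4 of histone H3, is deposited around active and CpG-rich promoters by SET1 and MLL methyltransferases. H3K9ac, an acetyl group on lysine 9 of the same histone tail, is written by acetyltransferases such as GCN5 and PCAF, removed by histone deacetylases, and found at active promoters and at some enhancers. Most active promoters carry both marks on the nucleosomes that flank the start of transcription. H3K9me3, a mark of heterochromatin, uses the same lysine as H3K9ac and so excludes it on 1 histone tail.

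A gene was scored as having a mark in a library when a deposited peak touched the 1 kb around either gene end, out of 21627 protein-coding genes. Both marks in all 8 libraries were found at 11908 genes, 55.1% of all. H3K4me3 in all 4 libraries with H3K9ac in none was found at 224 genes (1.04%), called H3K4me3-only genes here. H3K9ac in all 4 libraries with H3K4me3 in none was found at 493 genes (2.28%), called H3K9ac-only genes. Neither mark in any library was found at 5900 genes, and 3102 had a mark in some libraries. Just outside the rule lay 149 genes with 4 H3K4me3 libraries and 1 H3K9ac library, and 381 genes with no H3K4me3 library and 3 H3K9ac libraries. Which single-mark class was larger turned with the peak threshold: with peaks of a −log10 q of at least 5 the counts were 348 H3K4me3-only and 155 H3K9ac-only genes, and with lists cut to equal length 406 and 201. Of the deposited-list classes, 185 of 224 and 117 of 493 genes were also in the stricter classes. A mark in some of the cells cannot be told apart from a weak mark in all of them.

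The peak lists behind these classes differed between the marks. The 4 H3K4me3 lists held 43175 to 49045 peaks and the 4 H3K9ac lists 54853 to 87128, without overlap. The smallest peak was 148 to 150 bp for H3K4me3 and 252 to 260 bp for H3K9ac, and the lowest local background, a relative measure of depth, was 0.846 to 1.16 against 0.523 to 0.659. H3K9ac replicate 4 had the fewest H3K9ac peaks and the lowest background. Only peaks that gave a whole number of reads when solved were used for the background. They were 100% of the peaks tried in each H3K4me3 library. In H3K9ac replicates 1 to 4 they were 91.3, 92.8, 79.9 and 56.5%, so the scale of the background may differ between the marks. The part of these differences in the results was not tested. As a check of the labels, covered length per gene was correlated between libraries over 15852 genes, which are not independent replicates. The FGR H3K4me3 libraries followed each other (mean r 0.984) and then the Ctrl H3K9ac libraries (0.875), more than the Ctrl H3K4me3 libraries (0.763) or the FGR H3K9ac libraries (0.687). The FGR H3K9ac libraries followed each other (0.917), the Ctrl H3K9ac libraries at 0.661 and the Ctrl H3K4me3 libraries at 0.525. Within Ctrl, the H3K9ac libraries followed each other at 0.969 and the H3K4me3 libraries at only 0.835. The Ctrl H3K4me3 lists covered a mean of 11.1 Mb, against 37.3 Mb for FGR H3K4me3 and 43.4 Mb for Ctrl H3K9ac. The part of these short lists in the correlations was not tested. By this measure the FGR libraries labelled H3K4me3 were closer to another mark than to their own in Ctrl, so the mark labels of 1 of the animal groups may be wrong, which was not settled here. H3K4me3 and H3K9ac below mean the libraries with those labels, and every class, and every comparison with Ctrl, rests on them. Of 30 homeostatic microglia genes, 22 had both marks in all 8 libraries, against 55.1% of all genes. Both marks were at 5 of 18 neuronal, 7 of 13 astrocyte, 4 of 14 oligodendrocyte lineage and 3 of 11 border-associated macrophage genes. Neither mark in any library was found at 6 of 18 neuronal, 1 of 13 astrocyte, 1 of 14 oligodendrocyte lineage and 4 of 11 border-associated macrophage genes. The same held for 2 of 30 homeostatic microglia genes and 27.3% of all genes, so most genes of other cell types had a mark in some library.

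Promoter sequences show the base composition in which the 3 classes differed, and 2 per class are given here. Each is the 250 bases before the RefSeq start of the gene in GRCm38.p6, 5′ to 3′ on the gene's strand, with every CpG, the dinucleotide that promoter DNA methylation acts on, in capitals. Clec5a (chr6:40585806-40586055, minus strand) and Cd53 (chr3:106790150-106790399, minus strand) were H3K4me3-only genes. Tbxa2r (chr10:81328018-81328267, plus strand) and Cspg4 (chr9:56864854-56865103, plus strand) were H3K9ac-only genes, and the 1 kb window of Tbxa2r is shared with Gipc3. Zfp36 (chr7:28379229-28379478, minus strand) and C1qc (chr4:136892915-136893164, minus strand) had both marks.
Clec5a: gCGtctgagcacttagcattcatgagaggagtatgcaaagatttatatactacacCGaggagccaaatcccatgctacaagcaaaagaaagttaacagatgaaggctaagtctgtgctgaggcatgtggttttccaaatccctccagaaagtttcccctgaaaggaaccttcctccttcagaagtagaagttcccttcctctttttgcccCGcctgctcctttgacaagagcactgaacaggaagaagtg
Cd53: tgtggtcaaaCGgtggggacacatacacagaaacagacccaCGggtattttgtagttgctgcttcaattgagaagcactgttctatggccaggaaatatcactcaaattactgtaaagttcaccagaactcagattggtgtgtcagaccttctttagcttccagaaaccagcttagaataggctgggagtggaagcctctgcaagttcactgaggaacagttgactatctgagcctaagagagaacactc
Tbxa2r: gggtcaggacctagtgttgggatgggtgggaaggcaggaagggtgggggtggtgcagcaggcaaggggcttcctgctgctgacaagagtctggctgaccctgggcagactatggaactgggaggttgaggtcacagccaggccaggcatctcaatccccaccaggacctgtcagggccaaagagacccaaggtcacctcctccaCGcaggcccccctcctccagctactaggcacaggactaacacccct
Cspg4: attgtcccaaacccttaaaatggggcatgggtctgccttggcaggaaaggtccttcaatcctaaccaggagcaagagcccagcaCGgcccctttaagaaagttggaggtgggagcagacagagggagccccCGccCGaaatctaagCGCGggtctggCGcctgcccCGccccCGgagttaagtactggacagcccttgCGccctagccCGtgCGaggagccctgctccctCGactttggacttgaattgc
Zfp36: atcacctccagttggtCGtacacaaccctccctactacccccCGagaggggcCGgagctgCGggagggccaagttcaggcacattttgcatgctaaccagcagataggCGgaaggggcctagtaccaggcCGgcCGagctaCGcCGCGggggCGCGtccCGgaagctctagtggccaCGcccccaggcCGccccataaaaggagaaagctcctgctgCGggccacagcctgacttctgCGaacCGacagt
C1qc: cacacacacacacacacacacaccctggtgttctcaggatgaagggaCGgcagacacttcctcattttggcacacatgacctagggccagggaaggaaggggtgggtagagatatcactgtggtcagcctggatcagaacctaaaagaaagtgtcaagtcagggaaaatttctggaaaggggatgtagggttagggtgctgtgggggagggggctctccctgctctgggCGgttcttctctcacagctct
The Clec5a stretch holds 3 CpGs, the Cd53 stretch 2 and the Tbxa2r stretch 1. Cspg4 holds 12 and Zfp36 holds 18. C1qc, with both marks over more than 6 kb, holds 2, so a low CpG count was not particular to genes with a single mark.

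Over whole classes, 300-base promoters (250 bases before and 50 after the start) were compared where the class could be read at the 5′ end alone, at 17273 genes with a strand. The median G and C content was 61.7% at 9307 genes with both marks, 58.3% at 280 H3K9ac-only genes and 47.3% at 161 H3K4me3-only genes, against 56.3% over all 17273. The median number of CpGs per promoter was 22, 7 and 5, against 14 over all. The share of promoters with 10 or more CpGs was 87.6% with both marks, 36.8% for H3K9ac alone and 32.3% for H3K4me3 alone. H3K9ac-only promoters were thus rich in G and C but poor in CpG, with a median observed-to-expected CpG ratio of 0.295 against 0.783 with both marks and 0.319 for H3K4me3 alone. When the class was read at either end, only 72.4% of H3K9ac-only genes had a promoter sequence, so the values cover a part of that class. The 357 H3K9ac-only promoters then had medians of 58.0% G and C, 7 CpGs and a ratio of 0.290. The 189 H3K4me3-only promoters had 48.0%, 4 and 0.274. The letters GAGGAAGT on either strand, a PU.1-type motif named for the macrophage factor PU.1, were in 3.17% of all promoters. With the class read at the 5′ end they were in 10 of 161 H3K4me3-only promoters (6.21%), 6 of 280 H3K9ac-only promoters (2.14%) and 2.75% of promoters with both marks. Read at either end, the counts were 9 of 189 H3K4me3-only (4.76%) and 7 of 357 H3K9ac-only promoters (1.96%).

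**Figure D1:**
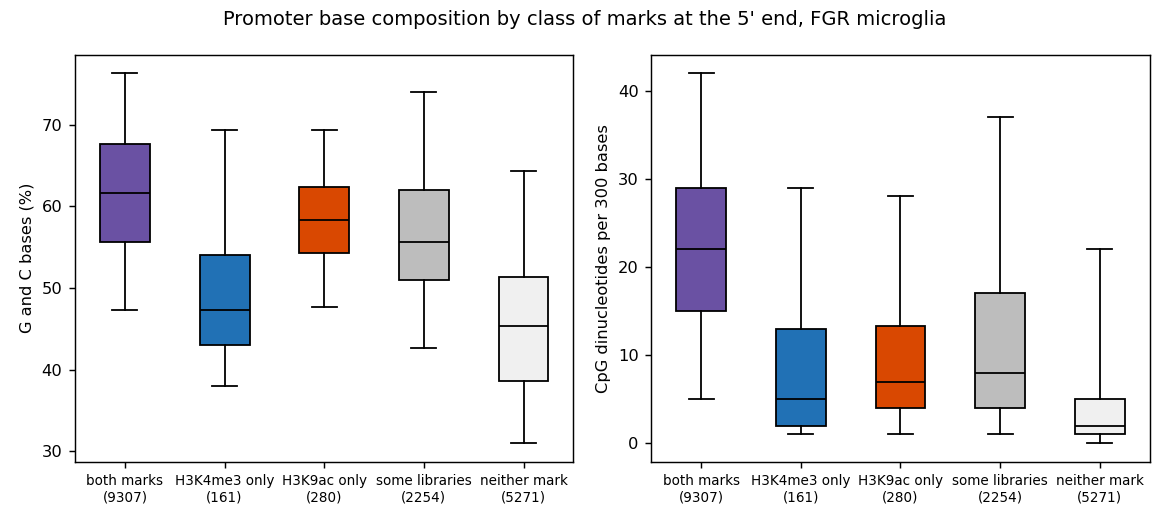
Base composition of 300-base promoters by class of marks read at the 5′ end in FGR microglia, with the number of genes under each class. Boxes span the quartiles with the median as a line and whiskers the 5th to 95th percentiles. Promoters with both marks have a median of 22 CpGs, those with H3K9ac alone 7 and those with H3K4me3 alone 5.

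The 5′ end held the mark at most genes of each class, at a lower share where 1 mark stood alone. Among genes with a strand, both marks were at the 5′ end in 9307 of 9581 genes (97.1%). H3K4me3 was at the 5′ end in 147 of 189 H3K4me3-only genes (77.8%) and at the 3′ end alone in 41. H3K9ac was at the 5′ end in 232 of 357 H3K9ac-only genes (65.0%) and at the 3′ end alone in 86 (24.1%). The median gene length was 21.98 kb with both marks, 21.0 kb for H3K4me3 alone and 9.58 kb for H3K9ac alone, against 17.3 kb over all genes. A missing mark at the ends did not mean a missing mark in the gene: H3K9ac peaks lay in the gene body in at least 1 library at 124 of 224 H3K4me3-only genes, and H3K4me3 peaks at 167 of 493 H3K9ac-only genes. The X chromosome held 17 of 224 H3K4me3-only genes (7.59%) and 0.609% of H3K9ac-only genes, against 4.47% of all genes, and chromosome 7 held 16.6% of H3K9ac-only genes against 9.39% of all. Windows of neighbouring genes overlap, and 190 of 224, 273 of 493 and 6484 of 11908 genes had a window that touched no other gene.

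Leukocyte surface genes had H3K4me3 alone at a larger share than the 1.04% of all genes. Of 24 leukocyte surface genes, 7 were H3K4me3-only (29.2%) and none was H3K9ac-only: Cd53, a tetraspanin of leukocytes, Cd84 and Ly9 of the SLAM receptor family, the transmembrane protein gene Evi2b, the inhibitory collagen receptor gene Lair1, and the C-type lectins Clec4a1 and Clec5a. Cd53, Cd84 and Evi2b were put on this list with earlier results of these data in view, so its count is no independent evidence. The count was 7 also with the stricter threshold and with lists of equal length, and 6 at the 5′ end alone. Of 33 C-type lectin genes, pattern receptors of myeloid cells, 5 were H3K4me3-only, 4 had both marks and 1, Clec10a, was H3K9ac-only. Of 60 chemokine and chemokine receptor genes, 3 were H3K4me3-only, with Ccr1 and Ccl12 among them, and 2 H3K9ac-only (Ccl21d and Cxcl5).

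Covered length, the length under peaks within 2.5 kb of either gene end, can include peaks that lie beyond the 1 kb of the class rule. Cd53 was covered by H3K4me3 over 2.81, 2.70, 2.76 and 2.77 kb in the 4 libraries and by H3K9ac over 0 kb in all 4. Its Ctrl H3K9ac libraries had 3.04 to 3.25 kb and its FGR H3K27ac libraries 3.32 ± 0.123 kb (SD, n = 4). Cd84 had 2.70 to 2.77 kb of H3K4me3 and 0 kb of H3K9ac, with 2.80 to 2.94 kb of H3K9ac in Ctrl. At both genes the H3K4me3 libraries lay within a narrow range and no H3K9ac peak was called, while every Ctrl H3K9ac library covered more than every FGR H3K4me3 library.

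Other H3K4me3-only genes belonged to innate immune lists. Tlr7, the receptor for single-stranded RNA in endosomes, was covered over 3.04 to 3.41 kb by H3K4me3 and 0.254 to 0.390 kb by H3K9ac. Casp1, the protease that matures interleukin 1 beta and that shares its window with Casp4, was covered over 3.32 to 3.74 kb by H3K4me3, by H3K9ac over 0.354 and 0.332 kb in replicates 1 and 2, and over 0 kb in replicates 3 and 4. Of 34 inflammatory genes, these 2 and Il6 were H3K4me3-only, Nfkb2 was H3K9ac-only and 22 had both marks. Ifit3, an interferon-induced gene, was the 1 of 20 interferon response genes, with 1.72 to 2.33 kb of H3K4me3 and H3K9ac in replicate 1 alone (0.254 kb). Cd40, a costimulatory receptor, was the 1 of 20 antigen presentation genes. Of 24 disease-associated microglia genes, Fth1 (ferritin heavy chain, window shared with Best1), Lyz2 (lysozyme) and Igf1 were H3K4me3-only. Fth1 had 2.47 to 2.95 kb of H3K4me3, but also 1.33 to 2.2 kb of H3K9ac within 2.5 kb of its ends. Read at the 5′ end alone, Fth1 had neither mark. Igf1, a growth factor, had 2.37 to 2.52 kb of H3K4me3 against 0.641 to 0.711 kb of H3K9ac, and only 0.399 ± 0.196 kb of H3K27ac (SD, n = 4).

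**Figure D2:**
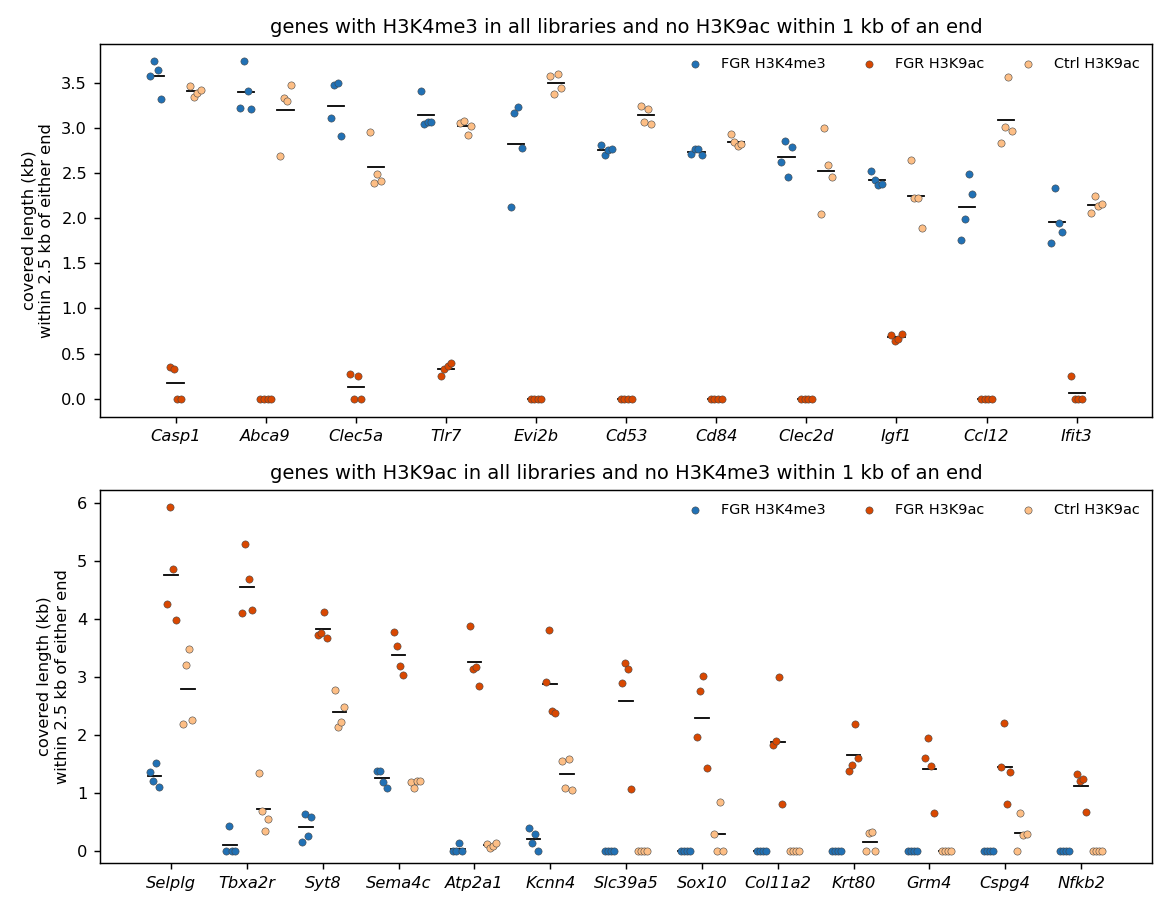
Covered length within 2.5 kb of either gene end for 11 H3K4me3-only and 13 H3K9ac-only genes, with 1 point per library and a line at the mean of 4 libraries. The FGR H3K4me3 points of Cd53 lie at 2.70 to 2.81 kb and its FGR H3K9ac points at 0, while its Ctrl H3K9ac points lie at 3.04 to 3.25 kb.

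H3K9ac alone, found at 2.28% of all genes, was at 7 of 105 keratin genes and at few members of the other lists, and most of these calls were lost with stricter lists. Of the 55 list members that were H3K9ac-only, 8 kept the class under the stricter threshold and 18 with lists of equal length. Of the 46 list members that were H3K4me3-only, 40 and 46 kept it. The equal length, 43175 peaks, was that of the shortest H3K4me3 list, so the cut fell mostly on the H3K9ac lists. Losing H3K9ac peaks cannot take a gene out of the H3K4me3-only class, so the counts at equal length do not compare the classes. None of 18 neuronal, 12 endothelial and mural, 16 lymphocyte and neutrophil and 11 border-associated macrophage genes was H3K9ac-only. Of 105 keratin and keratin-associated genes, which build epithelial cytoskeleton and hair, 7 were H3K9ac-only (6.67%), none was H3K4me3-only and 3 had both marks. Under the stricter threshold and with lists of equal length, 2 of these (Krt18 and Krt87) were H3K9ac-only. Of 14 oligodendrocyte lineage genes, Sox10, a transcription factor of glia, and Cspg4, the proteoglycan NG2 of oligodendrocyte precursors and pericytes, were H3K9ac-only, and Mog, whose window is shared with Zfp57, was H3K4me3-only. Mog kept its class under the stricter threshold and with lists of equal length, Sox10 kept it with the latter, and Cspg4 kept it with neither. Of 13 astrocyte genes, Slc1a2, a glutamate transporter, and S100b, whose window is shared with Dip2a, were H3K9ac-only, and both lost the class under either setting, where the list had none H3K9ac-only and 1 H3K4me3-only. Of 159 developmental transcription factor genes outside the Hox clusters, 6 were H3K9ac-only (with Barx1, Emx1, Sox10 and Sox30 among them) and 2 H3K4me3-only (Foxa1 and Irx2), but the stricter threshold gave 1 and 5. Of 387 solute carrier genes, 12 were H3K9ac-only (3.10%, near the share of all genes) and 3 H3K4me3-only, an order that turned to 2 and 4 under the stricter threshold and 5 and 6 with lists of equal length. Of 44 collagen genes, Col7a1, Col9a3 and Col11a2 were H3K9ac-only and Col4a5 was H3K4me3-only, each in a window shared with another gene, and the counts were 0 and 3 under the stricter threshold.

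Tbxa2r, the thromboxane A2 receptor gene, had 4.11, 5.29, 4.69 and 4.16 kb of H3K9ac, and 0, 0.435, 0 and 0 kb of H3K4me3. Its Ctrl H3K9ac libraries had 0.345 to 1.35 kb, below every FGR library. Atp2a1, the calcium pump of fast skeletal muscle, had 2.86 to 3.89 kb of H3K9ac and H3K4me3 in replicate 3 alone (0.148 kb), in a window shared with Rabep2. Syt8, a synaptotagmin gene that shares its window with Tnni2, had 3.67 to 4.13 kb of H3K9ac and 0.153 to 0.643 kb of H3K4me3. Kcnn4, an intermediate-conductance potassium channel activated by calcium, had 2.38 to 3.81 kb of H3K9ac and 0 to 0.406 kb of H3K4me3. At Kcnn4 the Ctrl H3K9ac libraries had 1.06 to 1.59 kb, again below every FGR library. Tbxa2r, Atp2a1 and Syt8 kept their class under the stricter threshold and with lists of equal length, and Kcnn4 lost it under both.

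Sox10 had 1.97, 2.76, 3.02 and 1.44 kb of H3K9ac and 0 kb of H3K4me3 in all 4 libraries. Cspg4 had 1.46, 2.22, 0.808 and 1.36 kb of H3K9ac and 0 kb of H3K4me3. Both were at 0 kb in all FGR H3K27ac libraries. Sox10 and Cspg4 define cells other than microglia, and beside them Mag had H3K9ac in 2 libraries, and Olig1 had H3K9ac in 3 and H3K4me3 in 1. S100b had 0.369 to 0.527 kb and Slc1a2 0.252 to 0.793 kb of H3K9ac, where the smallest peaks of these lists are 252 to 260 bp. The part of other cell types in these values was not tested. Nfkb2, an NF-kappa B subunit gene in a window shared with Psd, had 0.682 to 1.32 kb of H3K9ac, 0 kb of H3K4me3 and 0 kb of H3K27ac in every FGR library. Grm4 (a glutamate receptor), Wnt4 (a secreted signalling protein) and Krt80 were likewise at 0 kb of H3K4me3 in all libraries, with mean H3K9ac of 1.42 ± 0.548, 1.02 ± 0.582 and 1.67 ± 0.362 kb (SD, n = 4 each). Nfkb2, Grm4, Wnt4 and Krt80 all lost the class under the stricter threshold and with lists of equal length.

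Homeostatic microglia genes mostly had both marks, at 22 of 30 (73.3%) against 55.1% of all genes. None was H3K4me3-only and 1 was H3K9ac-only (3.33%), Selplg, the ligand of P-selectin. With 1.04% and 2.28% of all genes in these classes, a list of 30 genes is too short to differ from all genes in them. Selplg had 4.26, 5.92, 4.87 and 3.99 kb of H3K9ac and 1.37, 1.22, 1.52 and 1.11 kb of H3K4me3, the latter lying beyond 1 kb from its ends, and 4.45 ± 0.510 kb of H3K27ac (SD, n = 4). The 5 genes with a mark in some libraries were P2ry12, Itgam and Slc2a5 (H3K4me3 in 4 and H3K9ac in 3 libraries), Ptprc (4 and 1) and Gpr34 (3 and 0). Mef2a and Mef2c had neither mark at an end. With the stricter threshold 2 of the 30 became H3K4me3-only, with lists of equal length 1, and with a mark in at least 3 of 4 libraries 2.

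**Figure D3:**
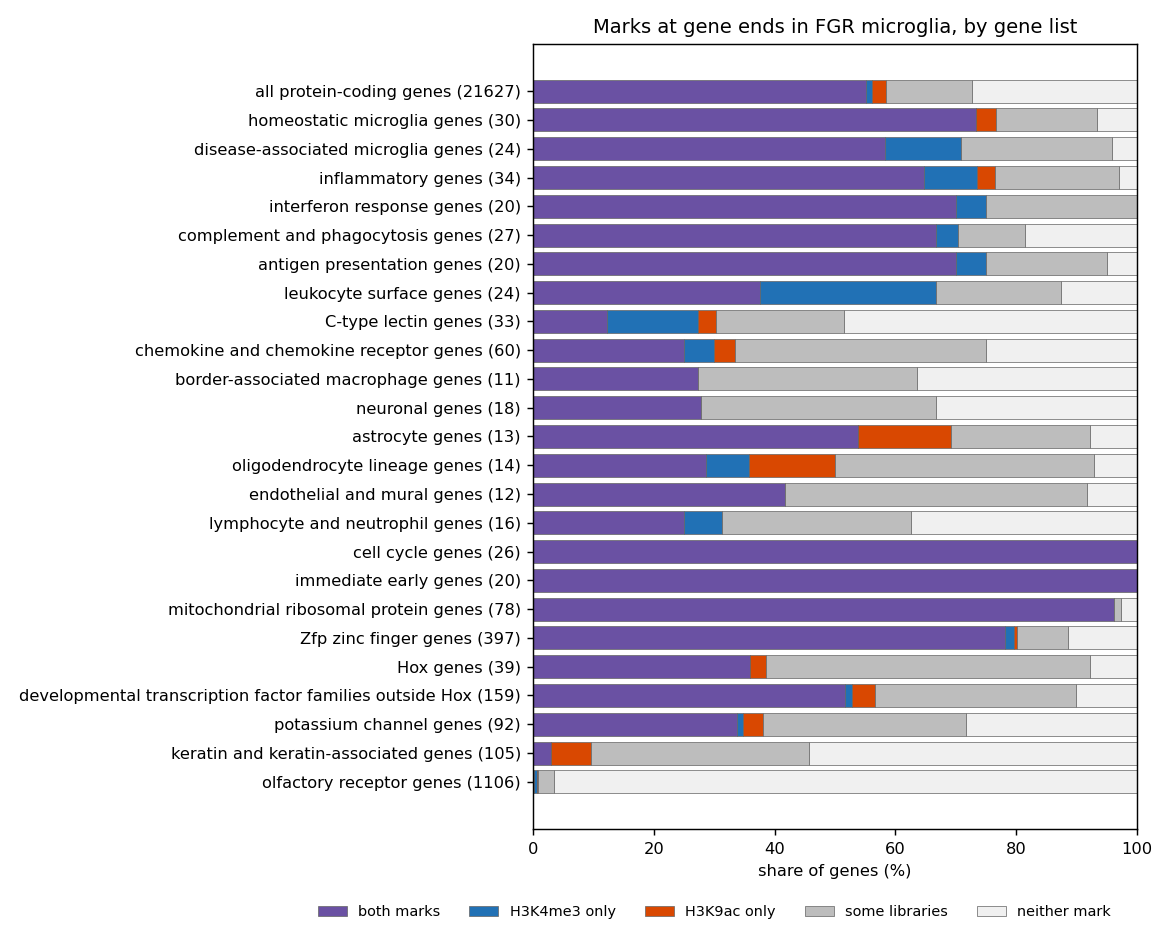
Share of the genes of each list in the 5 classes of marks at gene ends, with the number of genes in brackets and all protein-coding genes on top. H3K4me3-only genes make up 29.2% of leukocyte surface genes and H3K9ac-only genes 6.67% of keratin and keratin-associated genes, against 1.04% and 2.28% of all genes.

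Lists of genes that all cells use had both marks at a larger share than the 55.1% of all genes, given as counts with no test. All 26 cell cycle genes and all 20 immediate early genes had both marks in all 8 libraries, as had 75 of 78 mitochondrial ribosomal protein genes, 82 of 86 cytosolic ribosomal protein genes, 38 of 40 lysosome and V-ATPase genes, 60 of 63 replication-dependent histone genes and 33 of 34 tRNA synthetase genes. At the other end of the range were 1 of 1106 olfactory receptor genes and 2 of 353 vomeronasal receptor genes. Hox genes had both marks at 14 of 39 and a mark in some libraries at 21. C1qc, a subunit of complement C1q, was covered over 6.35 to 6.95 kb by H3K4me3 and 6.48 to 7.5 kb by H3K9ac. Tyrobp, which encodes the signalling partner of TREM2 and overlaps the Hcst window, was covered over 5.99 to 6.63 kb and 5.10 to 5.99 kb. Sall1, a transcription factor of microglia, was covered over 5.98 to 6.53 kb and 5.98 to 6.43 kb, and Zfp36, a protein that destabilises messenger RNA, over 6.46 to 7.01 kb and 6.66 to 6.83 kb. At C1qc, Sall1 and Zfp36 the ranges of the marks overlapped.

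Covered length was compared gene by gene between the marks with limma, 4 libraries against 4, with Benjamini-Hochberg adjustment over 15718 genes that had a peak in at least 2 libraries. H3K4me3 covered more than H3K9ac at 6697 genes (42.6%) and less at 2976 (18.9%), and the median difference over all genes was 0.186 kb. After quantile normalization the counts were 5044 and 3613, which moved the share of genes with more H3K4me3 among those called from 69.2% to 58.3%, and with the stricter threshold they were 7639 and 1474 (83.8%), with lists of equal length 7839 and 1809 (81.3%). A gene with peaks of 1 mark alone could pass the filter only by differing. The counts over all genes include 1693 genes with H3K4me3 and 518 genes with H3K9ac in fewer than 2 libraries. Members are therefore counted here for lists in which nearly all tested genes had peaks of both marks. Replication-dependent histone genes had more H3K4me3 at 53 of 61 tested members and less at 2, with a median difference of 0.906 kb. RNA splicing genes had more at 48 of 64 and less at 3, mitochondrial ribosomal protein genes more at 47 of 78 and less at 6, and lysosome and V-ATPase genes more at 27 of 39 and less at 4. Cytosolic ribosomal protein genes had more at 40 of 83 and less at 13, tRNA synthetase genes more at 18 of 34 and less at 4. Cell cycle genes had more at 15 of 26 and less at 3, housekeeping genes more at 9 of 14 and less at 2. Immediate early genes had more at 5 of 20 and less at 4, border-associated macrophage genes more at 3 of 6 and less at 2. In all lists counted up to here every tested gene had each mark in at least 2 libraries. Histone modifying enzymes had more at 16 of 38 and less at 12, and 37 had both marks in at least 2 libraries. This order turned to 10 more and 14 less after quantile normalization, and to 11 and 13 with covered length within 1 kb. Zinc finger genes named Zfp, mostly repressors of transcription, had more at 245 of 361 and less at 26, and 346 of the 361 had both marks in at least 2 libraries. Of 29 tested homeostatic microglia genes 16 had more and 4 less, and 27 had both marks in at least 2 libraries. After quantile normalization cytosolic ribosomal protein genes stood at 31 more and 20 less, and border-associated macrophage genes at 3 and 3. Histone modifying enzymes aside, the remaining lists counted here still had more genes with more than with less H3K4me3. Of 105 keratin genes 29 passed the filter, 22 of them with H3K4me3 in fewer than 2 libraries, so no direction is read from them.

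P2ry12, the purinergic receptor that microglia use to sense ADP, was covered over 8.15, 8.01, 8.05 and 7.76 kb by H3K4me3 and 1.69, 1.28, 1.82 and 1.5 kb by H3K9ac. The difference was 6.42 ± 0.135 kb (SE; limma, adjusted p = 1.03e-07), and its Ctrl H3K9ac libraries had 6.78 to 7.38 kb. Maf, a macrophage transcription factor, was covered over 8.34 to 8.40 kb against 3.68 to 3.87 kb, a difference of 4.56 ± 0.0701 kb (SE; limma, adjusted p = 2.95e-08). Adrb1, the beta-1 adrenergic receptor, was covered over 6.58 to 6.73 kb against 3.31 to 3.53 kb (limma, adjusted p = 1.96e-07), Ikzf2, a zinc finger factor of the Ikaros family, over 4.05 to 4.08 against 0.736 to 1.05 kb (limma, adjusted p = 2.77e-07), and Cd164, a sialomucin gene, over 4.46 to 4.73 against 1.69 to 1.81 kb (limma, adjusted p = 4.49e-07). The libraries of the marks did not overlap at any of these 5 genes. They were chosen among the 8 with the smallest limma p in this direction, so the lack of overlap follows from the choice. Efhd2, a calcium-binding protein gene, lay on the other side, with 3.19 to 3.49 kb of H3K4me3 against 5.66 to 6.16 kb of H3K9ac (limma, adjusted p = 2.49e-06), and so did Rhbdl1, a rhomboid protease gene in a window shared with Rhot2 and Stub1, with 1.86 to 2.39 against 4.79 to 5.23 kb (limma, adjusted p = 3.06e-06). The predicted genes Gm40367, Gm40369 and Gm36327, neighbours on chromosome 6, had 6.05 to 7.58 kb of H3K9ac against 2.54 to 3.74 kb of H3K4me3. Whether reads were shared among near-identical copies there was not tested.

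Where both marks were called at the same 5′ end in FGR, their summits were placed differently. At 9307 genes the summit of the strongest H3K9ac peak, that with the highest −log10 p within 1 kb, lay at a median of 213 ± 1.5 bp downstream of the annotated start, with an interquartile range of 241 ± 5.19 bp (SD over 4 libraries). The H3K4me3 summit lay at a median of 168 ± 1.71 bp, with an interquartile range of 647 ± 10.6 bp, and it lay upstream of the start at 30.7 ± 0.548% of genes against 18.2 ± 0.104% for H3K9ac. The libraries of the marks did not overlap in any of these values, and each gave an exact two-sided permutation p of 0.0286, the smallest that 4 against 4 allows. These tests were chosen after the summits were seen. In Ctrl, at 7707 to 8582 of these genes, the interquartile range was 448 to 509 bp for H3K4me3 and 426 to 482 bp for H3K9ac. The Ctrl median was 215 to 218 bp for H3K4me3 and 201 to 203 bp for H3K9ac, the reverse of the FGR order. The Ctrl share upstream was 25.793 to 26.998% for H3K4me3 and 26.812 to 28.025% for H3K9ac. These ranges overlapped, and the higher H3K4me3 share of FGR was not seen in Ctrl. In FGR the strongest H3K4me3 peaks were also wider than those of H3K9ac, 1414 ± 40.8 bp against 1140 ± 52.2 bp. The part of width and of the fragment setting in the spread of summits was not tested.

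**Figure D4:**
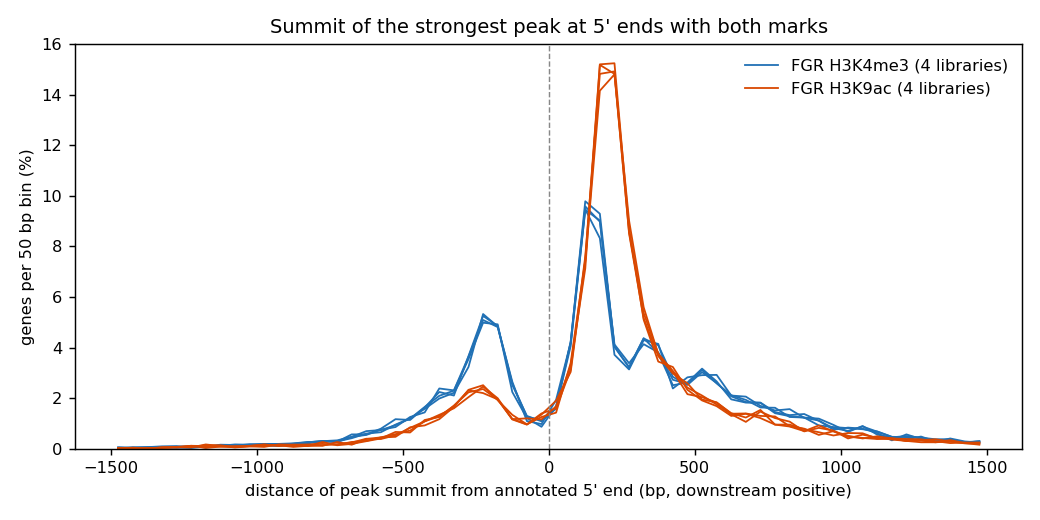
Distance of the summit of the strongest peak from the annotated 5′ end, as a share of 9307 genes with both marks per 50 bp bin, with 1 line per FGR library. H3K9ac summits gather downstream of the start around a median of 213 bp, and H3K4me3 summits have a maximum on each side of it, with 30.7% of them upstream.

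Over whole lists, the H3K4me3 libraries held fewer peaks than the H3K9ac libraries (45945 ± 2760 against 72648 ± 13780, SD, n = 4 each; exact two-sided permutation test, p = 0.0286). A larger share of H3K4me3 peaks lay at gene ends (33.0 ± 1.70% against 23.4 ± 2.65%; exact permutation p = 0.0286), and the median peak was wider (551 ± 12.1 against 422 ± 24.9 bp; exact permutation p = 0.0286). Under the stricter threshold the log2 difference in peaks was −0.13 (exact permutation p = 0.429), against −0.64 as deposited. With lists of equal length the difference in share at ends fell from 9.63 to 3.07 percentage points (exact permutation p = 0.0286) and that in width from 129 to 9.25 bp (exact permutation p = 0.686). The number of genes with the mark was lower for H3K4me3 as deposited (13094 ± 108 against 13914 ± 504; exact permutation p = 0.0286), but the difference turned to 132.5 more genes under the stricter threshold (exact permutation p = 0.714) and to 145.5 more with lists of equal length (exact permutation p = 0.114).

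Marks and samples that the rule did not use separated the classes. H3K4me3-only genes had an H3K27ac peak at an end in 48.7 to 55.8% of genes per FGR library, and a Ctrl H3K9ac peak in 55.4 to 58.9%, against 43.9 to 48.1% and 52.8 to 53.8% of all genes. Ctrl H3K4me3 was found at 16.5 to 26.8% of them, below the 46.2 to 48.1% of all genes. H3K9ac-only genes had FGR H3K27ac at 5.68 to 11.97%, Ctrl H3K9ac at 8.92 to 10.1% and Ctrl H3K4me3 at 0.203 to 0.406%. Genes with both marks had FGR H3K27ac at 75.4 to 80.9% and Ctrl H3K9ac at 90.2 to 91.5%. FGR H3K9me3 was the exception in order: H3K9ac-only genes had it at 4.46 to 6.69%, H3K4me3-only genes at 1.79 to 2.68% and genes with both marks at 0.336 to 0.991%, against 0.643 to 1.91% of all genes. Under the stricter threshold H3K9ac-only genes had H3K9me3 at 11.6 to 14.2% and H3K27ac at 12.3 to 16.8%.

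**Figure D5:**
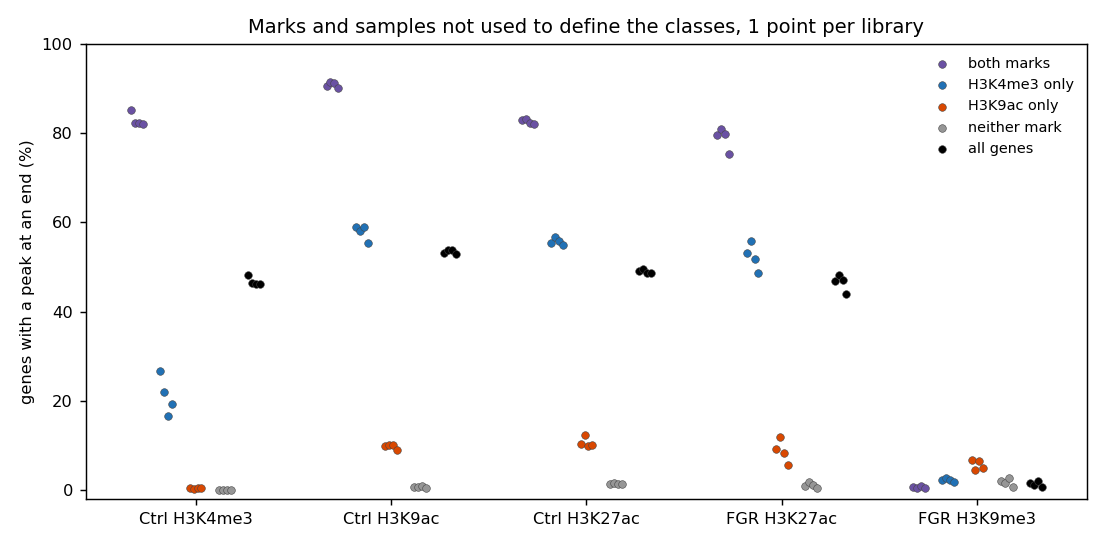
Share of the genes of each class with a peak at an end in libraries that did not define the classes, with 1 point per library. H3K4me3-only genes lie at 48.7 to 55.8% for FGR H3K27ac and 55.4 to 58.9% for Ctrl H3K9ac, and H3K9ac-only genes at 5.68 to 11.97% and 8.92 to 10.1%.

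Read in Ctrl, the class with both marks held many of the same genes, and the single-mark classes, small in both animal groups, shared few. Of the 21627 genes, Ctrl had 7992 with both marks, 64 H3K4me3-only, 503 H3K9ac-only and 8800 with neither mark. None of the 224 H3K4me3-only genes of FGR was H3K4me3-only in Ctrl, where that class held just 64 genes. Of them, 22 had both marks there and 37 were H3K9ac-only, among them Tlr7 and Evi2b. A further 105 had a mark in some libraries and 60 had neither. These were 0.275%, 7.36%, 2.46% and 0.682% of the Ctrl genes of each kind, against 1.04% of all genes in the FGR class. Of the 493 H3K9ac-only genes of FGR, 13 were H3K9ac-only in Ctrl, among them Syt8, and 390 had neither mark. The 13 genes were 2.64% of the FGR class and 2.58% of the Ctrl class. The latter is near the 2.28% of all genes in the FGR class. The 390 genes were 4.43% of the Ctrl genes with neither mark. Of the 11908 genes with both marks in FGR, 7912 had both in Ctrl, 66.4% of the FGR class and 99.0% of the Ctrl class. The FGR class held 55.1% of all genes. The difference between the marks itself differed between FGR and Ctrl at 69.9% of 15852 genes (interaction of mark and animal group, limma, adjusted over all genes). H3K4me3 minus H3K9ac was larger in FGR at 9419 genes and smaller at 1666, and after quantile normalization over the 16 libraries at 3138 and 3688. Ctrl lists had a lowest background of 2.84 to 3.58 for H3K4me3 and 2.35 to 2.63 for H3K9ac, above every FGR library, so depth and animal group cannot be told apart.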

How the data were processed

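The submitters' processing notes list, with no roles, MACS2 2.2.7.1, DiffBind 3.12.0, Trim Galore 0.6.5, SAMtools 1.3.1, Bowtie2 2.4.5 and the build mm10. The peak caller's options and control were not given in the sources used here. Each deposited peak list, 1 per library, gives a fold enrichment as a ratio, −log10 p and −log10 q values and a whole-number score made by the authors. These were used only to filter and rank peaks within a list and, solved together, for the lowest local background. No read counts came with the lists, so sequencing depth is unknown. The deposited summit offset, in bp, gave summit positions.

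Gene ends and promoters came from RefSeq tables of GRCm38.p6, the assembly behind mm10, for autosomes and X. Strand and promoter were found for 17273 of 21627 genes. Classes, covered lengths and exact permutation tests were computed in Python 3.11.15 with numpy 2.4.6, pandas 2.3.3 and scipy 1.17.1, and limma 3.58.1 was run in R 4.3.3 on covered kb, with a threshold of 0.05 on adjusted p and after tests on simulated data. Alternatives were other windows and overlaps, peaks with a −log10 q of at least 5, lists cut to 43175 peaks each, other class rules, quantile normalization, a replicate block and leaving out each library. No pair of the 8 lists shared more than 0.545% of identical peaks, so all were counted as separate libraries. Named genes were, per class, up to 10 members of the microglia, immune and cell type lists by covered length and the 8 genes with the highest lowest-library cover, the 8 smallest limma p in each direction, and up to 2 members of each other list from the single-mark class that held more of it. Other list members are named by their class or library counts alone. The members and lists were chosen with earlier results of these data known. Both animal groups' input libraries and the Ctrl H3K9me3 lists were not used here, and results of some genes are not reported here.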

Additional observations from a re-analysis of the deposited data

Results flagged for a closer look

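Of 174 groups of 4 libraries, 19 had 1 library apart from the other 3 by Dixon's criterion. Chance alone meets it in about 1 of 20 groups of independent, normally distributed values. Covered length cannot fall below 0, so a group with a peak in 1 library alone meets the criterion by construction. This was so for H3K4me3 at Tbxa2r and Atp2a1 and for H3K9ac at Ifit3, so the 2 rates are not comparable. H3K9ac replicate 4 had a median peak width of 459 bp against 407 to 411 bp in the others. Single H3K9ac libraries stood apart in covered length at Actb (7.68 kb), Ifit3 (0.254 kb), BC035044 (0 kb), Slc1a2 (0.793 kb), Adrb1 (3.53 kb), Efhd2 (5.66 kb), Wnt4 (1.89 kb) and Slc39a5 (1.07 kb). Single H3K4me3 libraries stood apart at Tlr7 (3.41 kb), Calcrl (3.15 kb), Tbxa2r (0.435 kb), Gm52796 (1 kb), Atp2a1 (0.148 kb), Gm36327 (2.91 kb), Gm17455 (0.213 kb), Zfp369 (1.55 kb), Efnb3 (0.149 kb) and Krt18 (0.848 kb).

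The difference of H3K4me3 minus H3K9ac was larger in FGR than in Ctrl at 9419 genes and smaller at 1666 by the limma interaction term. After quantile normalization the counts were 3138 and 3688, so the direction of the balance turned with the scaling.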

How the results depend on the processing

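With peaks of a −log10 q of at least 5 there were 348 H3K4me3-only and 155 H3K9ac-only genes, with lists of equal length 406 and 201, with a mark in at least 3 of 4 libraries 458 and 1011, and with each gene end taken alone 372 and 1032. The H3K9ac-only count was 280 at the 5′ end alone and 273 at genes whose window touches no other gene, a restriction chosen after seeing the data, where the count with both marks was 6484. All of these cover fewer or more genes or peaks by construction. Genes with less H3K4me3 numbered 1474 under the stricter threshold and 1809 with lists of equal length, and genes whose difference between marks differed between FGR and Ctrl 6826 after quantile normalization; the cause was not tested.

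Between library means, the log2 difference in peaks was −0.13 under the stricter threshold (exact permutation p = 0.429), the share of peaks at ends differed by 6.25 percentage points (exact p = 0.0571) and the median width by 106 bp (exact p = 0.0571), or 9.25 bp with lists of equal length (exact p = 0.686). The genes with the mark reversed to 132.5 and 145.5 under these settings. Without 1 library the exact test cannot go below 0.0571. Leaving out each library gave log2 differences in peaks of −0.77 to −0.55, −1036 to −634.7 genes, 8.80 to 10.8 percentage points at ends, 124 to 141 bp of width and 12.4 to 12.8 percentage points of upstream summits, always in the same direction.

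Same-numbered H3K4me3 and H3K9ac libraries did not deviate together (r of −0.0212 to 0.0633 across genes), so the numbers were not taken to pair them. With the number as a replicate block, 6296 genes had more and 2813 less H3K4me3, and 9316 and 1596 genes had a larger or smaller difference in FGR. Of 1226 values at 82 named genes, 1168 kept direction and call, 31 lost and 20 gained a call, and 7 at 3 uncalled genes reversed. These were Sall1 (0.16 kb within 1 kb, 0.0427 without H3K4me3 replicate 4, 0.00625 and 0.00658 without H3K9ac replicates 1 and 3, with −0.14 the lowest value without 1 library), Tyrobp (−0.0558 within 1 kb) and Zfp36 (0.0643 within 1 kb, 0.0207 without H3K4me3 replicate 4, with −0.16 the lowest without 1 library); the cause was not tested.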

Other observations

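Some H3K4me3-only genes carried a long H3K27ac cover in FGR. Olfr111, annotated as an olfactory receptor, had 2.65 to 3.41 kb of H3K4me3, 0 kb of H3K9ac and 5.98 ± 0.237 kb of H3K27ac (SD, n = 4), and its neighbour on chromosome 17, Olfr110, had 1.23 to 1.41 kb, 0 kb and 3.50 ± 0.170 kb. Ccl12, a chemokine gene, had 1.76 to 2.49 kb of H3K4me3, 0 kb of H3K9ac and 3.56 ± 0.287 kb of H3K27ac. BC035044 on chromosome 6 had 3.15 to 3.56 kb of H3K4me3, 0 to 0.309 kb of H3K9ac and 4.40 ± 0.395 kb of H3K27ac.

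Some H3K9ac-only members of housekeeping families were forms known from single tissues. Cox6a2, a respiratory chain subunit of heart and muscle, had 0.403 to 0.554 kb of H3K9ac and 0 kb of H3K4me3. Psmb11, the proteasome subunit of the thymic cortex, had 0.260 to 1.37 kb of H3K9ac and 0 kb of H3K4me3. Both share a window with another gene, Itgad and Cdh24. Neither kept its class under the stricter threshold or with lists of equal length.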
